A study of Pantherophis guttatus with 6 samples.

Results

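*HOX* genes were taken from a table of read counts per gene for embryonic dorsal skin of the corn snake (*Pantherophis guttatus*). A row was a member when its name, read up to any bracket, was HOXA, HOXB, HOXC or HOXD followed by a number. The rule found 51 rows among the 25731 complete rows of the table. Of these, 37 carried a symbol alone and 14 carried a symbol ending in "-like". After 10 rows of a second copy of the *HOXC* cluster and 2 antisense RNA rows were set aside, 39 distinct loci were left, with 11 in *HOXA*, 10 in *HOXB*, 10 in *HOXC* and 8 in *HOXD*.

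The libraries were poly(A) RNA from the dorsal skin of single embryos at embryonic day 40. There were 3 hypomelanistic embryos, homozygous for the hypomelanistic allele, and 3 wild-type embryos. The study states that they were siblings of 1 clutch, genotyped at the edges of the mapped interval. The labels give neither the sex of each embryo nor the axial level of the skin sample. The study names sex as the main source of difference among these samples, so sex is an uncontrolled difference here, and its part in the *HOX* levels was not tested. Levels are in CPM, the counts of a gene scaled to a common library size (counts per 1000000) after TMM normalization, and in CPM per kb of annotated exon where genes are compared with each other.

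HOX proteins are homeodomain transcription factors that give cells their position along the body axis. In vertebrates they lie in clusters. Low-numbered genes act towards the head and middle-numbered genes in the neck and trunk. High-numbered genes act towards the tail, in limbs and in genitalia. Dermal fibroblasts of mammals are known to keep a position-specific set of active *HOX* genes, so skin of one site carries only some of them.

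In these libraries total counts lay between 29958657 and 38541392, and the 39 loci took 0.0210% to 0.0273% of them. *TYR*, the tyrosinase gene of melanin synthesis, served as a check of the labels. It had 4.78, 5.13 and 5.01 CPM in hypomelanistic skin, against 42.6, 34.5 and 34.5 CPM in wild-type skin (log2 fold change -2.90 ± 0.11 SE, edgeR adjusted p = 0.000415). Fibroblast markers summed to between 98249 and 118617 CPM per library and keratinocyte markers to between 6526 and 7504 CPM, so RNA of both main layers of skin was present in each library. Markers of the floor plate and of motor neurons were listed for spinal cord, a tissue that uses *HOX* genes strongly. These markers summed to 2.13, 1.35 and 1.00 CPM in hypomelanistic libraries and 0.749, 1.06 and 1.55 CPM in wild-type libraries. *OLIG2* among them was at 0 in all 6 libraries, *FOXA2* reached at most 0.029 CPM and *MNX1* at most 0.097 CPM. *ISL1* and *CHAT* made up most of each sum, and whether their RNA came from spinal cord was not tested. Neuron markers summed to 16.6, 11.1 and 13.5 CPM in hypomelanistic libraries and 13.1, 22.1 and 13.4 CPM in wild-type libraries, and cartilage markers to 82.4, 66.9 and 85.1 CPM against 101.3, 125.8 and 81.4 CPM. Wild-type replicate 2 stood apart in *NEFL*, a neurofilament gene (3.00 CPM, at most 0.317 CPM in the other libraries), and in *COL9A1*, a cartilage collagen gene (8.64 CPM, at most 0.595 CPM in the other libraries). In bulk tissue, fewer cells of a type and less RNA per cell cannot be told apart.

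In the CU assembly used for the counts, each cluster lay on one scaffold. *HOXA* ran from base 37346514 to 37468229 of NW_026844015.1, *HOXB* from 4519293 to 4774361 of NW_026844035.1, and *HOXD* from 118980806 to 119120549 of NW_026844021.1. *HOXC* was present in duplicate, from 98110813 to 98372983 of NW_026844023.1 (the first copy) and from 457063 to 719909 of NW_026843752.1 (the second copy). A newer annotation of the species placed all matched *HOXC* rows on 1 chromosome. Rows with a symbol alone were matched to it by name, so a first-copy row and its second-copy row could match the same gene. The match therefore cannot show whether the copies are separate loci. A row named *HOXD3*-like lay in both *HOXC* copies, beside *HOXC4*, and was counted with *HOXC* at paralog number 3.

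Some rows of the *HOXC* copies did not behave as separate measurements. *HOXC8*, a trunk gene that marks thoracic and brachial levels in the mouse, had 500, 386 and 737 read pairs at the first copy and 517, 406 and 757 at the second in hypomelanistic libraries. In wild-type libraries it had 467, 555 and 558 at the first copy and 468, 560 and 552 at the second. These pairs of counts differed by 1 to 20, less than the counting standard deviation of the difference (28.1 to 38.7) in all 6 libraries.

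An antisense row near *HOXC5*-like, annotated with 629 exon bases at each copy, gave the same picture more sharply. Its counts were 108, 85 and 79 at the first copy and 107, 85 and 80 at the second in hypomelanistic libraries, and 142, 67 and 156 against 143, 67 and 157 in wild-type libraries. They differed by at most 1 read pair, where the counting standard deviation was 11.6 to 17.7. These rows differed by less than sampling noise, and each *HOXC* gene was therefore counted once. Not every pair was that close: *HOXC4* lay within the counting standard deviation in 3 of 6 libraries and *HOXC6* in 0 of 6, with 35 to 49 more read pairs at the first copy. *SMUG1*-like, a gene without a *HOX* name, had rows on both scaffolds with 2702 and 2701 exon bases. Its counts differed by 30 to 166 read pairs and lay within the counting standard deviation in 2 of 6 libraries. How read pairs that match both copies were assigned could not be settled from the table, so the level of *HOXC* relative to the other clusters is uncertain. *HOXC5*-like was the pair that differed most, with 127 to 206 more read pairs at the first copy in each library. Sums and counts of loci below use the first copy.

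**Figure D1:**
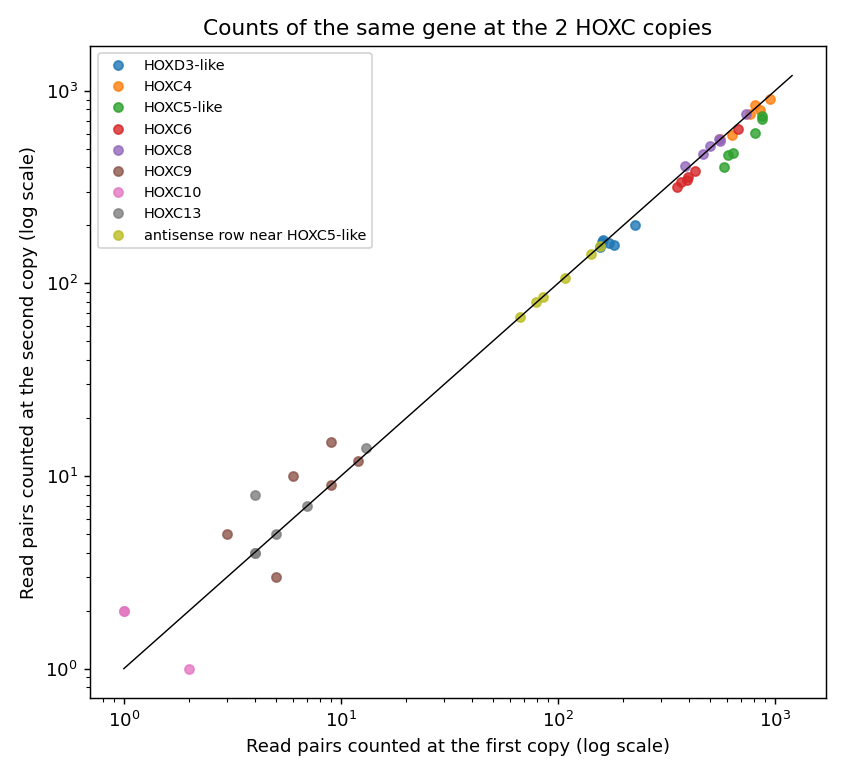
Read pairs counted at the first *HOXC* copy (x axis, log scale) and at the second (y axis, log scale); each point is 1 gene in 1 library, pairs with a count of 0 are left out, and the line marks equal counts. The antisense row lies on the line within 1 read pair in all 6 libraries, and *HOXC5*-like lies below it.

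Dorsal skin used low-numbered and middle-numbered *HOX* genes, *HOXD9* and *HOXB9*, and had next to no RNA of paralogs 10 to 13. Over the 39 loci, summed levels were 270.0, 217.4 and 283.6 CPM in hypomelanistic libraries and 235.1, 237.0 and 268.0 CPM in wild-type libraries. Paralogs 4 to 8, the middle-numbered genes, held 68.5% ± 4.04 of the summed CPM (SD over 6 libraries). Paralogs 1 to 3 held 26.3% ± 4.11, and paralogs 9 to 13 held 5.25% ± 0.08. These are shares of read pairs, in which long transcripts weigh more. By CPM per kb the shares were 23.3%, 72.4% and 4.33%.

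By cluster, *HOXD* held 35.4% ± 2.26 of the summed CPM, *HOXC* 31.2% ± 2.64, *HOXA* 23.9% ± 3.98 and *HOXB* 9.49% ± 0.96. On the scale of CPM per kb this order changed, and *HOXA* held 31.1%, *HOXD* 28.5%, *HOXC* 26.6% and *HOXB* 13.8%. *HOXB* was lowest on both scales in every library.

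**Figure D2:**
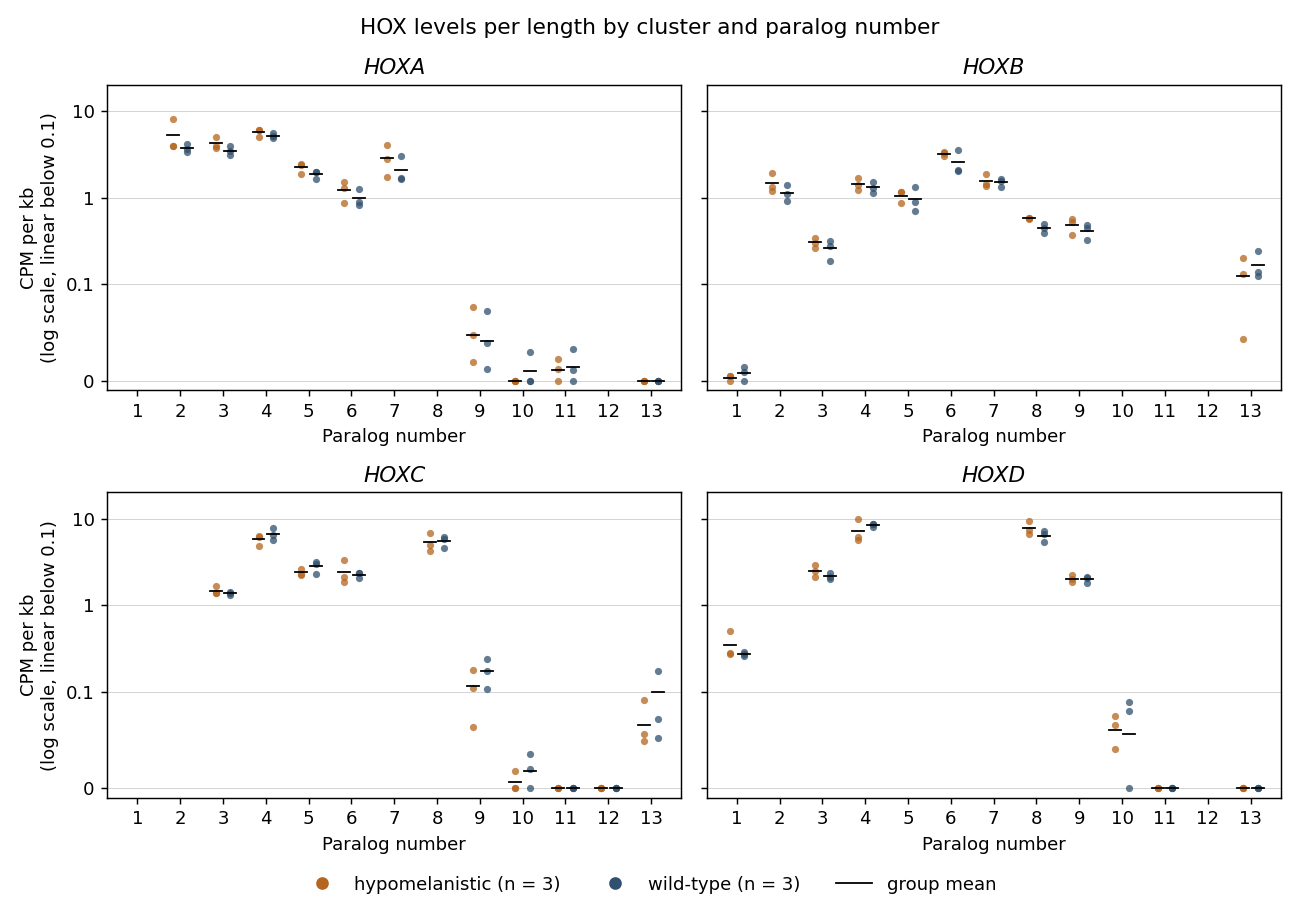
Level of 38 *HOX* loci in CPM per kb (y axis, logarithmic above 0.1 and linear below) by paralog number (x axis) in the 4 clusters, with points for single libraries and bars for group means. Levels drop between paralogs 7 and 9 in *HOXA*, between 8 and 9 in *HOXC* and between 9 and 10 in *HOXD*, and *HOXB9* stays near 0.45 CPM per kb.

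The high-numbered end of the clusters was close to silent. The 11 loci with paralog numbers 10 to 13 reached at most 13 read pairs in any library (0.388 CPM), and 5 of them (*HOXA13*, *HOXC11*, *HOXC12*, *HOXD11* and *HOXD13*) had no read pair in any of the 6 libraries. A count of 0 allows a level of up to 0.10 CPM in the shallowest library, for counting error only. *HOXA13* and *HOXD13* shape digits and the genital tubercle in the mouse. *HOXA10*, which in the mouse blocks rib formation at lumbar level, had read pairs in only 1 library, wild-type 2, with 4. *HOXA11*, a forearm gene in the mouse, had at most 3, *HOXC10* at most 2 and *HOXD10* at most 4.

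The highest of these loci were the terminal genes *HOXB13* and *HOXC13*, and their counts were still small. *HOXB13*, a tail gene, had 10, 2 and 7 read pairs in hypomelanistic libraries and 7, 11 and 6 in wild-type libraries. *HOXC13*, which is needed for hair and nail keratins in the mouse, had 7, 4 and 4 in hypomelanistic libraries and 4, 5 and 13 in wild-type libraries. For both genes the groups overlapped, and none of the 11 loci passed the filter on low counts.

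Paralog 9 split by cluster. *HOXD9* had 9.38, 8.62 and 10.4 CPM in hypomelanistic skin and 9.71, 8.45 and 9.77 CPM in wild-type skin, the steadiest level among the tested loci (coefficient of variation 7.80%). *HOXB9* had 3.29, 2.33 and 3.55 CPM in hypomelanistic skin and 2.02, 2.77 and 3.05 CPM in wild-type skin. *HOXA9* and *HOXC9* averaged 0.219 and 0.216 CPM and did not pass the filter on low counts. Per length, *HOXD9* stood at 2.02 ± 0.16 CPM per kb, *HOXB9* at 0.452 ± 0.09 and *HOXC9* at 0.147 CPM per kb, and the order *HOXD9*, *HOXB9*, *HOXC9*, *HOXA9* (0.0444 CPM per kb) held in every library.

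At the other end, *HOXB1*, a hindbrain gene in the mouse, was also near 0, with 1, 1 and 0 read pairs in hypomelanistic libraries and 2, 3 and 0 in wild-type libraries. *HOXD1* stood at 0.312 CPM per kb.

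Per length, with *HOXC* read at the first copy, *HOXD4* led the loci. It had 5.69, 6.10 and 9.76 CPM per kb in hypomelanistic libraries and 8.04, 8.58 and 8.64 CPM per kb in wild-type libraries. *HOXD8* followed at 7.06 ± 1.30 CPM per kb (SD over 6 libraries), and *HOXD4* was above it in 4 of 6 libraries. *HOXC4* at 6.20 ± 0.98, *HOXA4* at 5.44 ± 0.53 and *HOXC8* at 5.43 ± 1.01 CPM per kb came next. Each was above its next neighbour in 3 to 5 libraries, so the order within this leading group was not fixed beyond the spread of the libraries. The order also rests on the choice of the first copy, as *HOXC4* stood at 10.01 CPM per kb at the second copy. The lowest tested loci were *HOXB3* at 0.282, *HOXD1* at 0.312, *HOXB9* at 0.452 and *HOXB8* at 0.511 CPM per kb.

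Per-length levels depend on the annotated exons. *HOXC4* was annotated with 3629 exon bases at the first copy and 2196 at the second, and its 22.5 and 22.0 CPM became 6.20 and 10.01 CPM per kb. *HOXB3*, *HOXD3* and *HOXC5*-like had the longest annotations of the loci, with 11715, 10319 and 8277 exon bases, which lowers their values on this scale.

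The comparison of homozygous hypomelanistic with wild-type embryos asks whether the positional *HOX* pattern of the skin differed with the pigment genotype. No *HOX* row was called. Of the 51 rows, 32 passed the filter on low counts, namely 25 distinct loci, 5 second-copy rows and 2 antisense rows, and 19 did not pass. The edgeR quasi-likelihood test gave 0 rows with an adjusted p under 0.05 and 0 with an unadjusted p under 0.05. Over all 17025 genes tested, 0.0235% were called and 5.63% had an unadjusted p under 0.05. DESeq2 and limma-voom also called 0 *HOX* rows, with 0 at an unadjusted p under 0.05 for both tools, against 0.475% and 0.0176% of all genes called. DESeq2 was run without this filter and gave a p for 44 *HOX* rows and an adjusted p for 38. The smallest adjusted p was 0.828 by edgeR, 0.999 by DESeq2 and 0.845 by limma-voom.

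The absence of calls does not show equal levels. The 95% intervals of the 25 loci reached from -0.69 to 1.29 on the log2 scale. Among them 21 fold changes were above 0 and 4 below, against 51.0% above 0 among all genes. Their median log2 fold change was 0.23, against 0.00 over all genes, and the median size was 0.23, against 0.11. The loci were read in the same 6 embryos, so the 21 signs are not independent of each other. Over all 32 tested rows, the median log2 deviation from the 6-library mean was 0.18, -0.17 and 0.16 in hypomelanistic libraries. In wild-type libraries it was -0.17, -0.14 and 0.03, so the groups overlapped. Other values also leaned towards 1 group. Ribosomal RNA genes took 10.2%, 11.7% and 13.5% of the counts in hypomelanistic libraries, against 7.39%, 7.50% and 8.83% in wild-type libraries, with no overlap. Fold changes were below 0 for 7 of 8 fibroblast markers (median -0.20) and for 4 of 4 tested cartilage markers (median -0.70), with 0 called by edgeR. The summed level of each of these marker lists overlapped between the groups. Wild-type replicate 2 was the highest library for the cartilage markers *COL9A1* (8.64 CPM), *COMP* (5.16 CPM) and *COL2A1* (89.3 CPM), and the lowest for *ACAN* (22.6 CPM). The median of the cartilage markers without wild-type replicate 2 is not given here. With ribosomal RNA genes left out, 21 of 25 loci were above 0 with a median of 0.23, and without wild-type replicate 2, 21 of 25 with a median of 0.18. The fit without ribosomal RNA genes kept 17010 of the 17025 genes, so its TMM-scaled fold changes could hardly move. The part of ribosomal RNA content or library quality was not tested. The part of tissue composition was not tested. The median coefficient of variation over the 6 libraries was 18.5% for the loci and 11.9% for all tested genes. Without hypomelanistic replicate 1 the median log2 fold change of the loci was 0.09, with 21 of 25 still above 0. *HOXB8* was the only locus whose groups did not overlap, 1 of 25 and higher in hypomelanistic skin. Among all tested genes 12.2% had groups that did not overlap, 5.77% with hypomelanistic libraries higher and 6.4% with them lower.

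**Figure D3:**
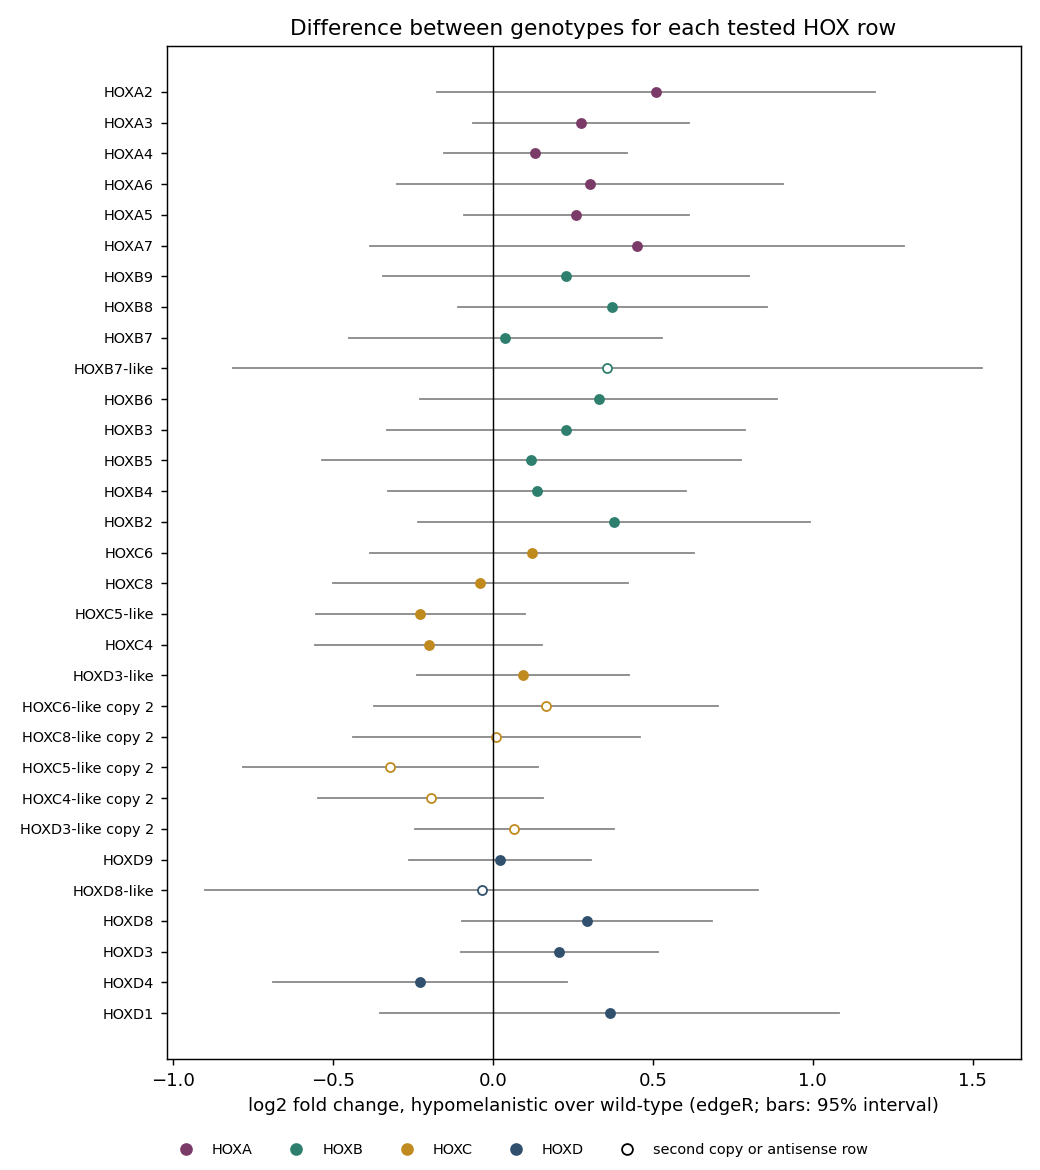
Log2 fold change of hypomelanistic over wild-type (x axis, edgeR) with its 95% interval for 31 tested *HOX* rows (y axis, in order along each cluster); open circles are second-copy or antisense rows. The interval of each row includes 0, and the 6 *HOXA* and 8 *HOXB* loci plotted lie to the right of it.

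In *HOXA*, all 7 tested loci had fold changes above 0 (median 0.28), and none passed the test. *HOXA2*, which patterns the hindbrain and second pharyngeal arch in the mouse, had 20.9, 10.1 and 10.1 CPM in hypomelanistic skin, against 9.48, 8.67 and 10.7 CPM in wild-type skin. The first hypomelanistic library was high, and the other hypomelanistic libraries lay within the wild-type range. The log2 fold change was 0.51 ± 0.29 SE (edgeR adjusted p = 0.828), and 0.07 without hypomelanistic replicate 1.

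*HOXA3*, needed for the thymus and parathyroid in the mouse, had 16.8, 13.2 and 12.7 CPM in hypomelanistic skin, against 10.5, 13.2 and 11.6 CPM in wild-type skin. It had the smallest unadjusted p of all *HOX* rows, 0.0959 by edgeR, with a log2 fold change of 0.28 ± 0.14 SE. The groups overlapped, and hypomelanistic replicate 1 was again the highest library. Without it the log2 fold change was 0.14.

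*HOXA4*, a cervical-level gene, had 11.4, 9.31 and 11.3 CPM in hypomelanistic skin and 9.19, 9.58 and 10.5 CPM in wild-type skin (log2 fold change 0.13 ± 0.12 SE). *HOXA5*, which acts in cervical vertebrae and lung in the mouse, had 9.93, 7.61 and 9.66 CPM in hypomelanistic skin, against 8.10, 6.61 and 8.01 CPM in wild-type skin (0.26 ± 0.15 SE). For both genes the groups overlapped. The exons of *HOXA5* share 660 bases with those of *HOXA6* on the same strand, 16.3% of the *HOXA5* length, so the split of reads between them is uncertain. *HOXA6* and *HOXA7* also had their highest level in hypomelanistic replicate 1, at 6.55 and 11.6 CPM. Over the 6 libraries their lowest levels were 3.58 and 4.61 CPM.

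In *HOXB*, all 8 tested loci had fold changes above 0 (median 0.23), and none passed the test. *HOXB8*, which is active in the trunk and spinal cord of the mouse, had 1.78, 1.70 and 1.76 CPM in hypomelanistic skin, against 1.18, 1.52 and 1.34 CPM in wild-type skin. All 3 hypomelanistic libraries lay above all 3 wild-type libraries. The log2 fold change was 0.37 ± 0.21 SE (edgeR adjusted p = 0.828), and it lay between 0.29 and 0.47 over the alternatives.

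*HOXB6*, a trunk gene with the highest level per length in its cluster, had 6.61, 5.82 and 6.44 CPM in hypomelanistic skin and 3.92, 4.09 and 6.99 CPM in wild-type skin (log2 fold change 0.33 ± 0.24 SE). Wild-type replicate 3 was the highest of all, so the groups overlapped. *HOXB2*, a hindbrain gene, had 3.73, 2.55 and 2.30 CPM in hypomelanistic skin, against 2.13, 2.68 and 1.79 CPM in wild-type skin (0.38 ± 0.26 SE). Its log2 fold change was 0.14 without hypomelanistic replicate 1. *HOXB7* had 2.33, 2.17 and 3.03 CPM in hypomelanistic skin and 2.16, 2.68 and 2.51 CPM in wild-type skin (0.04 ± 0.21 SE), and its sign turned when hypomelanistic replicate 3 (-0.12) or wild-type replicate 1 (-0.04) was left out. The exons of *HOXB7* share 974 bases, 60.4% of its length, with an antisense RNA named *HOXB7*-like, and the strand setting of the counting was not given in the sources used here. *HOXB3*, *HOXB4*, *HOXB5* and *HOXB9* had log2 fold changes between 0.12 and 0.23, and that of *HOXB5* was -0.07 without wild-type replicate 1. *HOXB3* ranged from 2.16 to 4.05 CPM over the 6 libraries, *HOXB4*, a regulator of blood stem cells in mammals, from 2.48 to 3.67 CPM, and *HOXB5* from 1.58 to 2.99 CPM. The antisense row *HOXB7*-like ranged from 0.161 to 0.583 CPM.

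In *HOXC*, 2 of the 5 tested loci had fold changes above 0 and 3 below (median -0.04). *HOXC5*-like had 18.7, 19.2 and 21.9 CPM in hypomelanistic skin, against 25.1, 18.7 and 26.1 CPM in wild-type skin, read at the first copy. At the second copy it had 13.8, 14.5 and 16.3 CPM in hypomelanistic skin and 21.4, 12.9 and 21.4 CPM in wild-type skin. At each copy wild-type replicates 1 and 3 were above all hypomelanistic libraries and wild-type replicate 2 was not, so the groups overlapped. The log2 fold change was -0.23 ± 0.14 SE at the first copy and -0.32 ± 0.20 SE at the second (edgeR adjusted p = 0.828 for both).

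The first-copy row of *HOXC5*-like ran from base 98229654 to 98372983, so *HOXC4* and *HOXD3*-like lay inside its span. It shared 0 exon bases with either. *HOXC4* had 22.3, 17.5 and 23.0 CPM in hypomelanistic skin and 23.3, 20.5 and 28.3 CPM in wild-type skin at the first copy. The log2 fold change of *HOXC4* was -0.20 ± 0.15 SE there and -0.19 ± 0.15 SE at the second copy. *HOXC6*, which marks the brachial region in the mouse, and *HOXC8* were highest in hypomelanistic replicate 3. *HOXC6* had 10.3, 11.6 and 18.4 CPM in hypomelanistic skin and 11.3, 12.9 and 12.8 CPM in wild-type skin. The groups overlapped for each of these genes. *HOXD3*-like stayed between 4.84 and 6.12 CPM in the 6 libraries. At the second copy *HOXC6*-like ranged from 9.18 to 17.0 CPM and *HOXC8*-like from 12.8 to 20.5 CPM, and the second-copy rows of paralogs 9 to 13 averaged at most 0.263 CPM.

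In *HOXD*, 4 of the 5 tested loci had fold changes above 0 and 1 below (median 0.21). *HOXD4* had the highest mean CPM of any single *HOX* row. *HOXC4* averaged 22.5 CPM at the first copy and 22.0 CPM at the second, so its rank against *HOXD4* depends on how read pairs were assigned. *HOXD4* had 31.9, 34.1 and 54.6 CPM in hypomelanistic skin, against 45.0, 48.0 and 48.4 CPM in wild-type skin. The hypomelanistic libraries included both the lowest and the highest level, and the wild-type libraries lay between them. The log2 fold change was -0.23 ± 0.20 SE (edgeR adjusted p = 0.847) and -0.51 without hypomelanistic replicate 3.

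*HOXD3*, which shapes the first neck vertebrae in the mouse, had 30.1, 21.6 and 25.6 CPM in hypomelanistic skin and 20.8, 21.8 and 24.3 CPM in wild-type skin (log2 fold change 0.21 ± 0.13 SE). *HOXD8* had 11.3, 10.3 and 14.2 CPM in hypomelanistic skin, against 10.1, 8.13 and 10.9 CPM in wild-type skin (0.30 ± 0.17 SE). Only hypomelanistic replicate 2 fell within the wild-type range of *HOXD8*. *HOXD1*, between 0.935 and 1.81 CPM, and *HOXD9* had log2 fold changes of 0.36 and 0.02. That of *HOXD1* was 0.03 without hypomelanistic replicate 1, its highest library. That of *HOXD9* was -0.05 without hypomelanistic replicate 3 and -0.04 without wild-type replicate 2.

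The row named *HOXD8*-like is annotated as a long noncoding RNA on the strand opposite to *HOXD8*, with which it shares 171 exon bases. It had 13.6, 18.9 and 38.6 CPM in hypomelanistic skin and 28.1, 18.5 and 26.3 CPM in wild-type skin. At 14.9 CPM per kb it exceeded each protein-coding *HOX* locus of the first copies on the per-length scale. Its hypomelanistic libraries spanned the wild-type range on both sides (log2 fold change -0.03 ± 0.37 SE), and the sign turned when any of hypomelanistic replicates 1 or 2 or wild-type replicates 1 or 3 was left out, giving 0.25, 0.10, 0.08 and 0.02.

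Single libraries differed in which *HOX* genes were highest in them. Hypomelanistic replicate 1 was the highest library for 13 of the 25 loci, for all 7 of *HOXA* and for 7 of the 8 tested loci with paralog numbers 1 to 3. Hypomelanistic replicate 3 was the highest for 8 loci, among them 3 of 5 in *HOXC* and 3 of 5 in *HOXD*. Wild-type replicate 3 was the highest for 4 loci, and hypomelanistic replicate 2, wild-type replicate 1 and wild-type replicate 2 for none.

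The balance of low-numbered to middle-numbered genes showed the same embryo. Summed CPM of paralogs 1 to 3 divided by that of paralogs 4 to 8 was 0.548, 0.424 and 0.321 in hypomelanistic libraries, against 0.338, 0.375 and 0.321 in wild-type libraries. The first hypomelanistic library was highest and the groups overlapped. Summed *HOXA* levels were 85.8, 53.2 and 62.1 CPM in hypomelanistic libraries, against 50.8, 51.7 and 59.2 CPM in wild-type libraries. Without hypomelanistic replicate 1, the median log2 fold change of the *HOXA* loci was 0.11, with 6 of 7 above 0.

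Other genes were also high or low in hypomelanistic replicate 1. The summed level of the 7 skeletal muscle markers found was 746, 2926 and 1985 CPM in hypomelanistic libraries, against 2135, 3301 and 922 CPM in wild-type libraries, lowest in hypomelanistic replicate 1. Wild-type replicate 3 was almost as low. Its summed *HOXA* level was 59.2 CPM, the highest of the wild-type libraries, against 85.8 CPM in hypomelanistic replicate 1. Hypomelanistic replicate 3, with 1985 CPM of muscle markers, had a summed *HOXA* level of 62.1 CPM. *EZH2*, the catalytic subunit of Polycomb repressive complex 2, had 63.8, 35.9 and 38.2 CPM in hypomelanistic skin and 37.4, 40.8 and 40.9 CPM in wild-type skin. *BMI1*, a subunit of Polycomb repressive complex 1, had 32.3, 20.2 and 20.03 CPM in hypomelanistic skin and 19.2, 20.8 and 19.6 CPM in wild-type skin. *EZH2* and *BMI1* were both highest in hypomelanistic replicate 1. No other Polycomb gene of the regulators listed below was highest there, and *SUZ12* and *RNF2* were lowest there, at 23.1 and 85.8 CPM. Of the tested regulators outside Polycomb, *KMT2A* was highest there at 78.1 CPM and *GDF11* was lowest there at 11.3 CPM. The part of tissue composition in these differences was not tested.

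**Figure D4:**
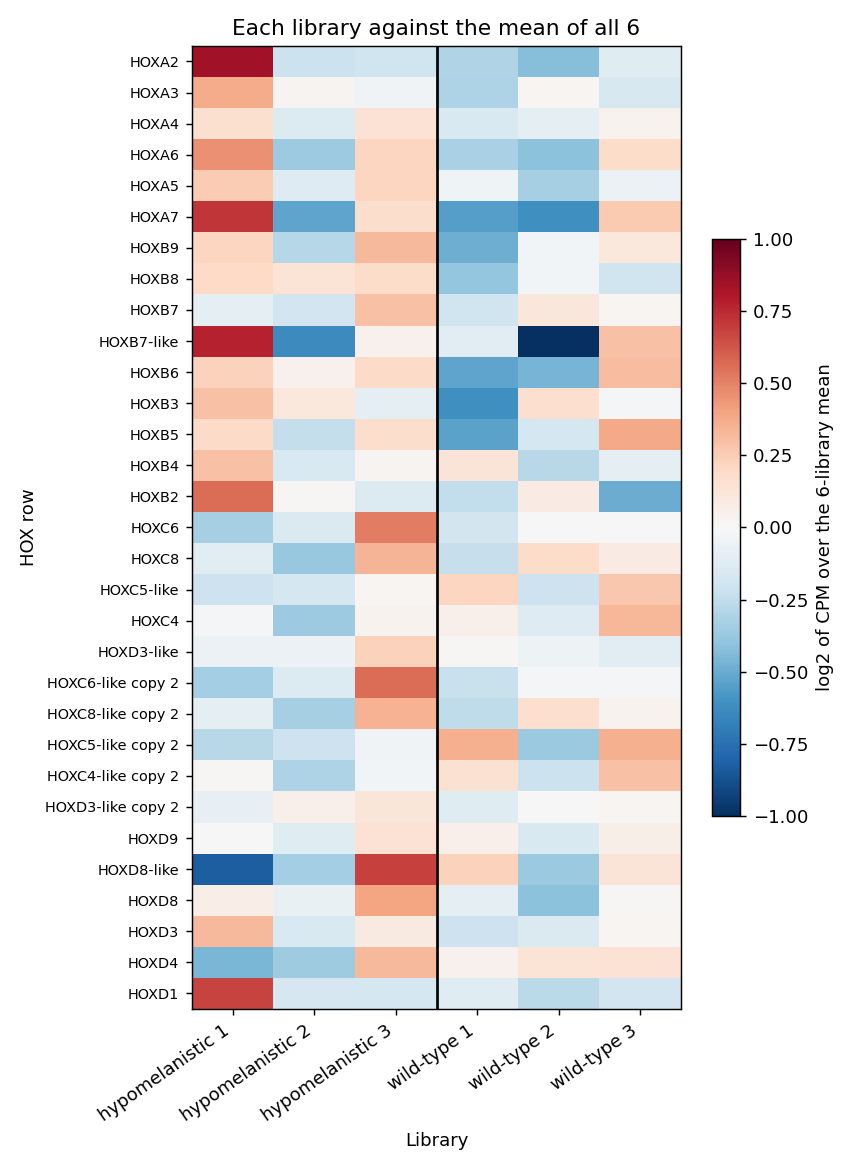
Log2 of the CPM in each library (x axis) over the mean of all 6 libraries for 31 tested *HOX* rows (y axis), with red above and blue below the mean and colours capped at 1. The *HOXA* rows are darkest red in hypomelanistic replicate 1, and *HOXC6* and *HOXD8*-like are reddest in hypomelanistic replicate 3.

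HOX proteins bind DNA together with the TALE homeodomain partners PBX, MEIS and PKNOX. All 9 partner genes were tested, 3 with fold changes above 0 and 6 below (median -0.01), and 0 were called by edgeR, with 0 at an unadjusted p under 0.05 and 0 called by DESeq2. Their summed level was steady, at 270.3, 265.0 and 252.7 CPM in hypomelanistic libraries and 256.5, 274.0 and 256.1 CPM in wild-type libraries. The smallest unadjusted p of the list were those of *MEIS3* (log2 fold change -0.51 ± 0.34 SE), *PBX2* (0.15 ± 0.11 SE) and *MEIS1* (-0.05 ± 0.07 SE).

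Regulators of the clusters include the CDX factors, GDF11, the activating methyltransferase KMT2A and the Polycomb repressors. Of the 14 genes in this list, 11 were tested, 6 with fold changes above 0 and 5 below (median 0.08), and 0 were called by edgeR or DESeq2. The 3 not tested were the *CDX* genes, which act at the tail bud, with *CDX4* at 0 in all libraries. *EED*, a core subunit of Polycomb repressive complex 2, was the only one with an unadjusted p under 0.05 by edgeR. Over all tested genes this share was 5.63%. It had 12.0, 11.1 and 11.5 CPM in hypomelanistic skin, against 15.1, 14.5 and 15.9 CPM in wild-type skin. The groups did not overlap for *EED* and for *SUZ12*, another core subunit of the same complex, 2 of the 11 tested regulators. Among all tested genes 12.2% had groups that did not overlap. *SUZ12*, named after its values were seen, had 23.1, 23.8 and 25.0 CPM in hypomelanistic skin and 25.3, 25.5 and 27.8 CPM in wild-type skin. The log2 fold change of *EED* was -0.40 ± 0.09 SE (edgeR adjusted p = 0.713). *EED* lies in the interval mapped for the hypomelanistic locus, where the embryos were selected to differ, so genotype at *EED* and at the causal gene cannot be told apart. *RING1* (0.18 ± 0.10 SE) and *GDF11* (-0.19 ± 0.11 SE) followed it by unadjusted p.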

How the data were processed

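Poly(A) RNA was sequenced as stranded read pairs from 6 dorsal skin samples. The authors used STAR 2.7.10b for alignment to the CU assembly and featureCounts (Subread 2.0.6) for counting. Their methods state that only uniquely mapped pairs were counted. Yet the antisense row near *HOXC5*-like differed by at most 1 read pair between the *HOXC* copies, against a counting standard deviation of 11.6 to 17.7. Other pairs, among them *HOXC5*-like and *HOXC6*, differed by more than their counting standard deviation in every library. Whether some pairs were counted at both copies was not tested. The deposited values are raw counts per gene, with no normalization, and an exon length per gene that the authors' counting tool wrote. Of 25735 lines, 4 were broken and left out. The strand setting of the counting was not given in the sources used here.

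CPM used TMM-scaled library sizes. Genes were kept by filterByExpr (17025) and tested with the edgeR 4.0.16 quasi-likelihood test in R 4.3.3, without covariates, and p-values were adjusted by Benjamini-Hochberg over these 17025 genes, with a threshold of 0.05. The biological coefficient of variation was 0.17 and the prior had 3.24 degrees of freedom. DESeq2 1.42.0 and limma-voom (limma 3.58.1) were alternatives, as were other size factors, no filter, a replicate block, ribosomal RNA genes left out, each library left out, and, chosen after seeing the data, handling of the *HOXC* copies. No 2 libraries agreed within sampling noise (chi-square per degree of freedom 21.3 to 69.8). The scripts were tested on simulated data. Names and gene types of numbered loci came from the RefSeq annotation of a newer assembly (*Pantherophis guttatus* Tessera), which matched 45 of the 51 rows; no coordinates were taken from it.

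Members, gene lists and rules were chosen with earlier results of these data known. 1 locus entered the sums and counts but is not reported here by itself. Values were given for the other members, and fold changes with SE for the 10 rows of smallest edgeR p and the 2 rows per cluster of highest CPM per kb. Others were given by counts, ranges or fold changes chosen after their values were seen. From the lists of partners and regulators, the 3 genes of smallest p were named. *EZH2*, *BMI1*, *SUZ12*, *RNF2*, *KMT2A* and *CDX4* were added after their values were seen. As the embryos were separate siblings, p-values measure the spread between embryos of 1 clutch.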

Additional observations from a re-analysis of the deposited data

How the results depend on the processing

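None of the 13 alternatives to the main test called a *HOX* row, and 275 of 284 recomputed fold changes of the 22 *HOX* rows whose fold change is given or ranged in the text kept their sign. The exceptions came from leaving out single libraries, with *HOXB5* between -0.070 and 0.41, *HOXB7* between -0.12 and 0.13, *HOXD9* between -0.048 and 0.085, and *HOXD8*-like between -0.58 and 0.25. The median log2 fold change of the 32 tested *HOX* rows was 0.15, and 0.09 to 0.26 with 1 library left out. For the 25 distinct loci it was 0.23, and 0.09 to 0.32 with 1 library left out, when 17 to 22 loci were above 0. The count of *HOX* rows with an unadjusted p under 0.05 by edgeR was 0 to 3 with 1 library left out. The share over all genes was 5.63% in the main fit. It is not given for these fits or for the replicate block, so their counts cannot be set against a background. Over all genes, edgeR called 4, DESeq2 85, and the fit with a replicate block 1. Leaving out 1 library gave 2 to 10 calls over all genes. Same-numbered samples did not deviate together (correlations -0.08, 0.11 and -0.01 for numbers 1, 2 and 3), so the numbers were not taken to pair the embryos. Under the replicate block the median log2 fold change of the *HOX* rows was 0.14, 0 rows were called and 1 had an unadjusted p under 0.05. As shares of the summed level, CPM per kb in place of CPM gave 31.1% for *HOXA*, 13.8% for *HOXB*, 26.6% for *HOXC*, 28.5% for *HOXD* and 4.33% for paralogs 9 to 13, which follows from the annotated lengths. Using the second *HOXC* copy in place of the first gave 5.41% for paralogs 9 to 13. Loci under about 0.3 CPM did not pass the filter on low counts of the main test.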

Other observations

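Other RNAs are annotated between the *HOX* genes. Counting both *HOXC* copies, 17 rows without a *HOX* name lay inside the cluster spans, and several matched the newer annotation as long noncoding RNAs on the strand opposite to the *HOX* genes. Their function in the snake is not annotated. In *HOXA*, LOC117654946 averaged 7.15 CPM (5.44 to 10.7 over the 6 libraries). In *HOXD*, LOC117671884 averaged 5.42 CPM (3.51 to 6.96).

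Of the 17 rows, 7 passed the filter on low counts and 10 were not tested. Among the 7, edgeR called 0, with 0 at an unadjusted p under 0.05, and DESeq2 called 0. Over all genes, edgeR called 0.0235%, with 5.63% at an unadjusted p under 0.05, and DESeq2 called 0.475%. The 7 rows hold the antisense row near *HOXC5*-like at both copies, which are not separate measurements. The log2 fold change of hypomelanistic over wild-type was 0.43 ± 0.21 SE for LOC117654946 (adjusted p = 0.828) and 0.32 ± 0.23 SE for LOC117671884 (adjusted p = 0.830). The antisense row near *HOXC5*-like, LOC132711023, had a log2 fold change of -0.46 ± 0.31 SE (adjusted p = 0.830). Reads of a gene and its antisense partner cannot be told apart here if the counting ignored strand.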
